A study of Mus musculus with 6 samples.

Results

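Blood clotting on the vessel wall is held in balance by a small set of endothelial genes, and 9 of them were followed here across cultured mouse aortic endothelial cells: tissue factor (F3), the tissue factor pathway inhibitor (Tfpi), its relative Tfpi2, thrombomodulin (Thbd), the endothelial protein C receptor (Procr), protein S (Pros1), factor VIII (F8), the ligand Gas6 and the thrombin receptor F2r. Their probe sets were taken by gene symbol alone, as every probe set that the array annotation assigns to one of these symbols. This gave 14 probe sets of 45037 that are not array controls. The 9 genes themselves were chosen with earlier results of these data known. All 9 genes were found, of 18193 genes named on the array. Tfpi was read by 4 probe sets, Gas6 and F2r by 2 each, and every other member by 1.

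The cultures came from mice of strain C57, either non-transgenic or carrying a human PPARG of the V290M form, a dominant negative nuclear receptor, which the endothelial CDH5 promoter (vascular endothelial cadherin) directs to the endothelium. Neither group received a treatment. From 10 mice in each group 5 cultures were made, each of 2 pooled mice, and RNA of 3 of these 5 was amplified in a two-step reaction and put on 6 Affymetrix GeneChip mouse genome arrays, so that n = 3 cultures in each group. The comparison asked which genes differ with the interfering receptor in endothelial cells. Whether the cells of these cultures made that receptor is not shown by these values: the probe set of mouse Pparg had log2 levels of 12.31, 11.37 and 10.56 against 11.57, 9.52 and 11.30 (difference -0.62 ± 0.61, SE, limma adjusted p = 0.681), and whether it reads the human transcript is not given in the files.

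As background, coagulation starts when tissue factor, a membrane protein, meets factor VIIa of the plasma. Tfpi stops the complex of tissue factor and factor VIIa, and Tfpi2 is a related inhibitor with Kunitz domains that is deposited in the extracellular matrix and blocks plasmin and other serine proteases. Thrombin, the end product of the cascade, activates platelets. To endothelium it signals through F2r. On healthy endothelium Thbd captures thrombin and turns it towards protein C, which Procr presents, and the activated protein C then destroys factors Va and VIIIa with protein S as cofactor. Protein S and Gas6 are close relatives, and both bind the receptor kinases Axl, Tyro3 and Mertk.

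Levels are given as the deposited signal or as log2(signal + 16), and differences as transgenic minus non-transgenic on that log2 scale, with the standard error (SE) of the fit; this scale understates the change of dim genes. A gene was tested where the mean log2 level of its brightest probe set over the 6 arrays reached 7.72, a signal of 194, which is the median over all probe sets. The culture called transgenic replicate 3 stood apart from its group: on the first principal component, with 61.4% of the variance over probe sets above that level, it lay at -33.1 among the non-transgenic cultures (-49.8 to -22.3), while transgenic replicates 1 and 2 lay at 54.9 and 92.5. For Gapdh, whose control probe sets read both transcript ends as a sign of RNA quality, the signal at the 3' end over that at the 5' end was 1.51 to 1.71 in non-transgenic cultures against 1.20 to 1.44 in the transgenic cultures. The same ratio for actin overlapped, at 1.83 to 2.17 against 1.74, 1.40 and 2.21, with transgenic replicate 3 the highest of all. Of 15 endothelial markers 5 reached the level filter by their mean, namely Eng, Flt1, Emcn, Egfl7 and Tek. Under it on every array lay 9, among them Cdh5, Pecam1, Nos3 and Vwf. All 10 fibroblast markers reached it, and 61.6% of all genes on the array did. The labelled cell type is thus not borne out by several of its defining markers. Cdh5, named above for the promoter of the transgene, was at 7.19, 6.97 and 6.74 in non-transgenic cultures against 5.90, 5.56 and 6.81 in the transgenic cultures. Its relation to the level of the transgene was not tested. Of 14 leukocyte and macrophage markers, 10 reached the filter on the array of transgenic replicate 2 and 4 or 5 on each other array. Of 6 platelet and megakaryocyte markers 2 reached the filter by their mean, Itgb3 on all 6 arrays and Itga2b on 4. The other 4, among them Pf4 and Ppbp, lay under it on every array.

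Tfpi2 differed most. Its signal was 2021, 1728 and 1511 in non-transgenic cultures against 10492, 12075 and 2173 in the transgenic ones. All 3 transgenic cultures lay above every non-transgenic one, but replicate 3 only just, and the transgenic cultures spanned far more than the non-transgenic ones. The log2 means were 10.78 ± 0.21 (SD, n = 3) and 12.67 ± 1.37 (SD, n = 3), a difference of 1.89 ± 0.59 (SE), or 3.72-fold. Over all genes tested it did not pass (limma adjusted p = 0.428, unadjusted p = 0.0132). The 95% interval of the difference ran from 0.52 to 3.27.

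No member passed the adjusted threshold of 0.05, and none of the 11208 genes tested did (0%). At an unadjusted p under 0.05 the fit held 725 genes that were higher (6.47%) and 563 that were lower (5.02%). Among the 8 members tested, Tfpi2 was the 1 gene at that level. It was also the 1 tested member whose groups did not overlap, against 9.39% of all genes tested not overlapping with the transgenic group higher. The median difference over the 8 members was -0.03, close to the -0.02 over all genes tested. A size above that of Tfpi2 was found for 117 genes, 1.04% of those tested.

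Without transgenic replicate 3, which lay near the non-transgenic cultures over all genes as well, the Tfpi2 difference was 2.68 ± 0.19 (SE) with a limma adjusted p of 0.000786, and only 7 genes had a smaller p. In that fit 771 genes passed as higher (6.88%) and 878 as lower (7.83%), so that calls were common. No gene passed with any other array left out. Leaving out the transgenic culture nearest to the controls favours larger differences, so p-values of that fit, here and below, are no independent support. The Tfpi2 difference was 1.45 without transgenic replicate 2 and 1.55 without transgenic replicate 1. Replicate 3 itself lay 0.32 above the non-transgenic mean. Mean log2 levels of 7 cell cycle genes had a like order, at 10.89, 9.96 and 9.96 in non-transgenic cultures against 12.30, 12.71 and 10.30 in the transgenic cultures, and the Gapdh ratio was 1.35, 1.20 and 1.44 in transgenic replicates 1 to 3. The summed signal of the 14 leukocyte and macrophage markers was 4927, 3272 and 3878 against 11588, 22100 and 4850. Their mean log2 levels were 7.42, 7.11 and 7.62 against 7.68, 9.08 and 7.08. By mean log2 level they thus stood out only in transgenic replicate 2, but by summed signal in transgenic replicate 1 as well. The brightest of them in transgenic replicate 1 was Cd53, followed by Csf1r. Cd53 had log2 levels of 12.65, 13.29 and 8.43 in the transgenic cultures, against 7.74 to 10.41 in non-transgenic ones. Csf1r was at 11.03, 10.49 and 10.59 against 8.61 to 9.06, so it lay higher in all 3 transgenic cultures. Ptprc, under the filter on every array, lay lower in all 3, at 5.89, 5.83 and 5.88 against 5.96 to 7.66. The adipocyte markers had mean log2 levels of 11.89, 9.92 and 9.85 against 9.09, 7.45 and 9.73. The part of any of these in the Tfpi2 result was not tested. In bulk RNA, fewer cells of a type and less RNA per cell cannot be told apart.

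**Figure D1:**
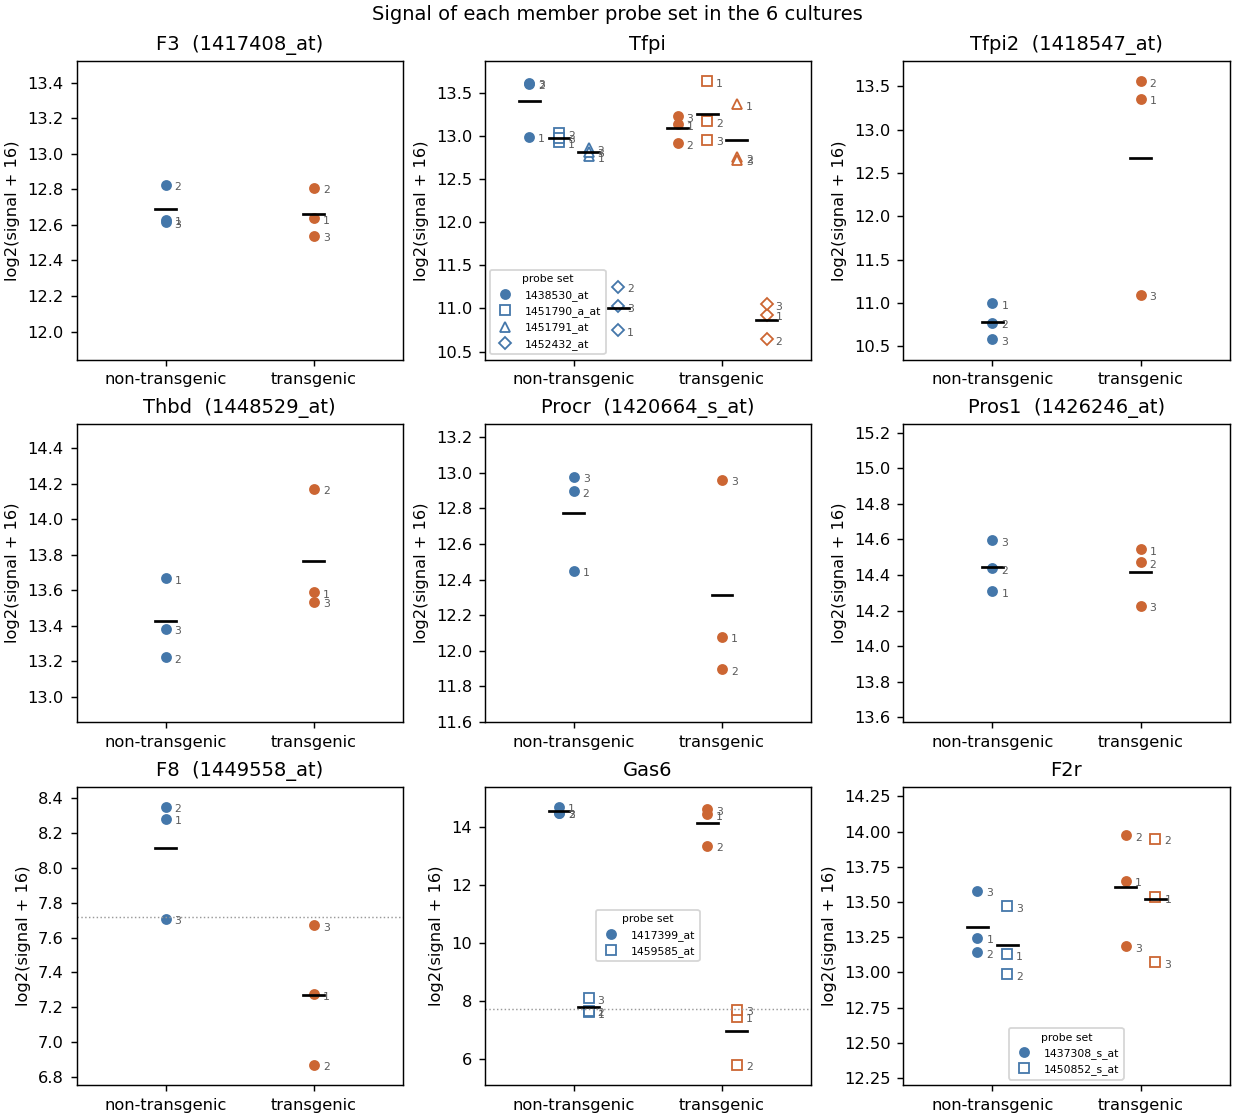
Log2(signal + 16) of the 14 probe sets of the 9 genes, one panel per gene, by group. Each point is a culture with its replicate number, black bars are group means, and the dotted line is the level filter at 7.72. Tfpi2 lies between 10.58 and 10.99 in non-transgenic cultures, against 13.36, 13.56 and 11.10 in the transgenic ones, while the F3 points of the groups overlap.

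Tissue factor was nearly level across the cultures. The F3 signal was 6317, 7250 and 6258 in non-transgenic cultures against 6354, 7167 and 5933 in the transgenic ones. The groups overlapped almost wholly, and the highest culture of each was its replicate 2. Their log2 means of 12.69 ± 0.12 (SD, n = 3) and 12.66 ± 0.14 (SD, n = 3) differed by -0.03 ± 0.15 (SE, limma adjusted p = 0.943), with a 95% interval from -0.37 to 0.31. The span from the lowest to the highest of the 6 cultures was 0.29, and 4.44% of the genes tested had a narrower one. By root mean square distance of the 6 log2 values, each gene centred on its own mean, the genes most like F3 were Tpp2 (0.030), Cnot7 (0.038) and Nfyb (0.040), against a median distance of 0.32 over all genes.

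The 4 probe sets of Tfpi did not go the same way. The brightest, 1438530_at, had signals of 8113, 12458 and 12580 in non-transgenic cultures against 8974, 7722 and 9594 in the transgenic cultures. Non-transgenic replicate 1 lay inside the transgenic range, so the groups overlapped. The difference was -0.31 ± 0.20 (SE, limma adjusted p = 0.529), and it was -0.52 without that culture. Probe set 1451790_a_at had signals of 7763, 8352 and 8076 in non-transgenic cultures against 12725, 9214 and 7918 in the transgenic cultures, a difference of 0.27 ± 0.19 (SE, limma adjusted p = 0.505 in the fit of every probe set). Here transgenic replicate 1 stood alone at the top, as it did on 1451791_at, at 10572 against 6753 to 7400 in the 5 other cultures. The dimmest, 1452432_at, differed by -0.14 ± 0.22 (SE, limma adjusted p = 0.789) and again overlapped.

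Within an array, the log2 ratio of 1438530_at to 1451790_a_at was 0.064, 0.58 and 0.64 in non-transgenic cultures against -0.50, -0.25 and 0.28 in the transgenic cultures. The mean ratio was 0.59 lower in the transgenic group, more than the SD of 0.32 and 0.40 within the groups, but the groups overlapped (exact permutation p = 0.2, two-sided, adjusted p = 0.4 over the 8 pairs of probe sets of 1 gene that were compared). The ratio of 1451790_a_at to 1451791_at was the 1 of these 8 that did not overlap, at 0.159, 0.174 and 0.165 against 0.267, 0.419 and 0.229 (exact permutation p = 0.1, the smallest that 3 against 3 allows, adjusted p = 0.4). As the mean of its 4 probe sets Tfpi differed by -0.01. Which transcript forms the probe sets read is not given in the files, so no single direction can be stated for Tfpi.

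**Figure D2:**
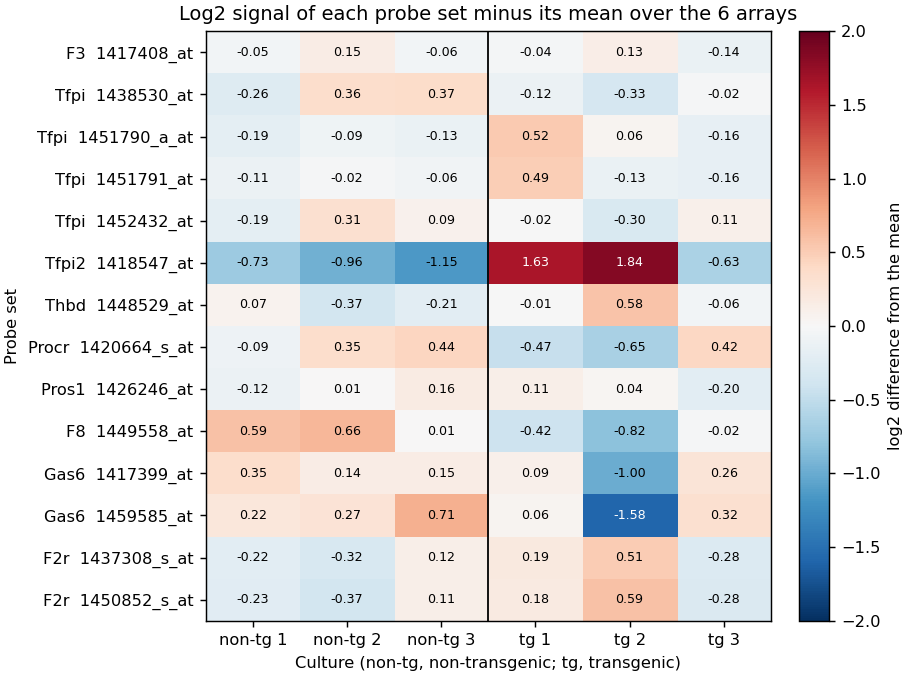
Log2 signal of each of the 14 probe sets (rows) in each of the 6 cultures (columns), minus the mean of that probe set over the cultures; red is above and blue below the mean. The Tfpi2 row runs from -1.15 to 1.84, the 2 Gas6 rows are lowest in transgenic replicate 2, the dim one at -1.58, and the 4 Tfpi rows differ from one another in transgenic replicate 1.

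Promoter sequences of all members with an entry were searched for a fixed set of letters. RefSeq promoters (GRCm38.p6) were matched for 8 of the 9 members, all but Thbd, in 11 entries, and the 250 bases before each start were searched on both strands for TGANTCA, the letters bound by AP-1, the factor of Jun and Fos. F3, Tfpi2, Procr and F2r held a match in 1 entry each, 4 of the 11 entries, and 6.75% of all 32851 promoter entries did. The 3 sequences below let the matches be read in place beside the values of F3, which hardly varied, of Tfpi2, which lay higher in all 3 transgenic cultures, and of the receptor F2r. Each is printed 5′ to 3′ on the gene's strand with the AP-1 letters in capitals.
F3, chr3:121723287-121723536, plus strand: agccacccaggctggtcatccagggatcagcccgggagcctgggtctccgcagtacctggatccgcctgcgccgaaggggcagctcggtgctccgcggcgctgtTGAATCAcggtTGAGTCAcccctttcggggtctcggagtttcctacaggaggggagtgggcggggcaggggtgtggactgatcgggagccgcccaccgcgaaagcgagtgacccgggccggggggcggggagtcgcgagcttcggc
Tfpi2, chr6:3968376-3968625, minus strand: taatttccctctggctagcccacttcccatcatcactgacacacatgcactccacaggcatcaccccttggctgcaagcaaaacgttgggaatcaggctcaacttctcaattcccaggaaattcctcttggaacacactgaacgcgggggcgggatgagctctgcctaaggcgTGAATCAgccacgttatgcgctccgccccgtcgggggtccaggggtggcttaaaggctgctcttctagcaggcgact
F2r, chr13:95618467-95618716, minus strand: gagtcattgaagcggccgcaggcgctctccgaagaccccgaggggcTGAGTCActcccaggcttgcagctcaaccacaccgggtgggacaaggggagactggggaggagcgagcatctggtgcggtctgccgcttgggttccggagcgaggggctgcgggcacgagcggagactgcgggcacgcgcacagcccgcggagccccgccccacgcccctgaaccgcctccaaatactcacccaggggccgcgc
The F3 matches begin 146 and 135 bases before the start, that of Tfpi2 77, that of F2r 204 and that of Procr 154. The 2 other starts listed for Tfpi2 held none. Neither did the entries of Tfpi. The sequence of Procr is not printed here, and its mean lay lower in the transgenic group (difference -0.46 ± 0.29, SE, limma adjusted p = 0.529).

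The other letters searched were common or rare among all promoters. The GC box GGGCGG was found in 7 of the 11 entries (6 members), against 32.7% of all entries, and the CACCC box in 9 (7 members), against 52.0%. The NF-kappaB letters, GGG and TTTCC with any 2 bases between them (1.41% of all entries), were found in none of the 8. Nor was the site of PPARG with its partner RXR, the letters AGGTCA repeated with any 1 base between (0.0335%). CACCC matches share letters with an AP-1 match of F3 and with a GC box of Gas6, and neither a match nor its lack shows whether a factor binds. Of the AP-1 genes, Jun was at 11.60, 11.18 and 10.94 in non-transgenic cultures against 12.32, 13.27 and 11.46 in the transgenic cultures (difference 1.11 ± 0.43, SE, limma adjusted p = 0.428), with replicate 3 inside the non-transgenic range, and without that culture it passed at 1.55 (limma adjusted p = 0.0173). Fos was at 14.27, 14.25 and 14.24 against 14.12, 14.02 and 14.09 (difference -0.18 ± 0.09, SE, limma adjusted p = 0.467), and with each array centred on its median it turned to 0.092. Egr1, a factor known to bind the F3 promoter, differed by -0.18 ± 0.11 (SE, limma adjusted p = 0.531) and likewise turned to 0.093 with that centring.

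Among the members of the protein C pathway, Thbd lay slightly higher and Procr lower in the transgenic group, and neither passed. The Thbd signal was 13000, 9547 and 10670 in non-transgenic cultures against 12304, 18430 and 11855 in the transgenic cultures. Transgenic replicate 2 was the highest and the other transgenic cultures lay inside the non-transgenic range. The difference was 0.34 ± 0.20 (SE, limma adjusted p = 0.506), with a 95% interval from -0.13 to 0.81, and it was 0.14 without transgenic replicate 2. The summed signal of the 15 endothelial markers was also highest in that culture, at 11657 against 5557 to 9089 elsewhere, as was that of the leukocyte and macrophage markers, at 22100 against 3272 to 11588. By mean log2 level the endothelial markers were at 7.81 there against 7.18 to 7.72 elsewhere. Among them Flt1 was highest there, at 12.57 against 10.42 to 11.53, and Cdh5 lowest, at 5.56 against 5.90 to 7.19. The part of these markers in the Thbd value was not tested. The genes nearest to Thbd over the 6 cultures were Rassf3 (root mean square distance 0.042), 3110045C21Rik (0.044) and Gltp (0.050), against a median of 0.42. Klf2 and Klf4, flow-responsive factors known to induce thrombomodulin, differed by 0.51 ± 0.41 and -0.33 ± 0.19 (SE, limma adjusted p = 0.614 and 0.503). Without transgenic replicate 3 this Klf4 probe set passed, at -0.53 (limma adjusted p = 0.036), while a second one, at -0.27, did not (limma adjusted p = 0.218 in the fit of every probe set).

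Procr, which presents protein C to the complex of thrombin and thrombomodulin, had signals of 5574, 7606 and 8060 in non-transgenic cultures against 4306, 3789 and 7960 in the transgenic ones. Transgenic replicates 1 and 2 lay below every non-transgenic culture, and replicate 3 lay beside the highest. The difference was -0.46 ± 0.29 (SE, limma adjusted p = 0.529), with a 95% interval from -1.14 to 0.22. Without transgenic replicate 3 it was -0.79 ± 0.19 (SE) and passed (limma adjusted p = 0.0345), as 7.83% of all genes tested did in that direction. Without transgenic replicate 2 it was -0.26 and did not pass. The mean log2 level of the 10 fibroblast markers had a like order, at 12.94, 12.94 and 13.09 against 12.65, 12.21 and 13.12, and their part in the Procr value was not tested.

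Pros1 had signals of 20284, 22171 and 24742 in non-transgenic cultures against 23894, 22700 and 19157 in the transgenic cultures. The groups overlapped, with the highest value in a non-transgenic and the lowest in a transgenic culture. The difference was -0.03 ± 0.12 (SE, limma adjusted p = 0.923), with a 95% interval from -0.32 to 0.25. Like F3 it varied little, with a span of 0.37 over the 6 cultures, and 9.73% of the genes tested had a narrower one.

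Gas6, the ligand that shares its receptors with protein S, was low in 1 culture. On its bright probe set, 1417399_at, the signal was 26385, 22756 and 22836 in non-transgenic cultures against 22023, 10341 and 24724 in the transgenic cultures. Transgenic replicate 2 lay far under all others, and replicate 3 inside the non-transgenic range. The difference of -0.43 ± 0.30 (SE, limma adjusted p = 0.564) shrank to -0.04 without replicate 2. The second probe set, 1459585_at, was dim and lay under the filter, at 180, 186 and 258.6 against 159, 40.0 and 193, with the same culture lowest. In transgenic replicate 2 the adipocyte markers had a mean log2 level of 7.45, against 9.09 to 11.89 elsewhere, and the fibroblast markers 12.21, against 12.65 to 13.12. Their part in the Gas6 value was not tested.

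F8, the cofactor that speeds the activation of factor X, was dim. Its signal was 295, 310.4 and 193 in non-transgenic cultures against 139, 101 and 188 in the transgenic cultures, and its mean log2 level fell just short of the filter, so it was not among the genes tested. Every transgenic culture lay below every non-transgenic one, although non-transgenic replicate 3 and transgenic replicate 3 were close, at 193 and 188. In the fit without a filter, over 18193 genes, the difference was -0.84 ± 0.36 (SE, limma adjusted p = 0.505, unadjusted p = 0.0485). In that fit 7.07% of genes had groups that did not overlap with the transgenic one lower, and 4.64% were lower at an unadjusted p under 0.05.

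F2r, the thrombin receptor, was read by 2 bright probe sets that ran together. On 1437308_s_at the signal was 9700, 9022 and 12233 in non-transgenic cultures against 12855, 16087 and 9295 in the transgenic cultures. Transgenic replicates 1 and 2 lay above every non-transgenic culture and replicate 3 near the lowest, so the groups overlapped. The difference was 0.28 ± 0.22 (SE, limma adjusted p = 0.594) on this probe set and 0.32 ± 0.23 (SE, limma adjusted p = 0.529 in the fit of every probe set) on 1450852_s_at. It was 0.49 ± 0.17 (SE, limma adjusted p = 0.0875) without transgenic replicate 3 and 0.096 without transgenic replicate 2. Of the other protease-activated receptors, F2rl2 and F2rl3 lay under the filter.

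**Figure D3:**
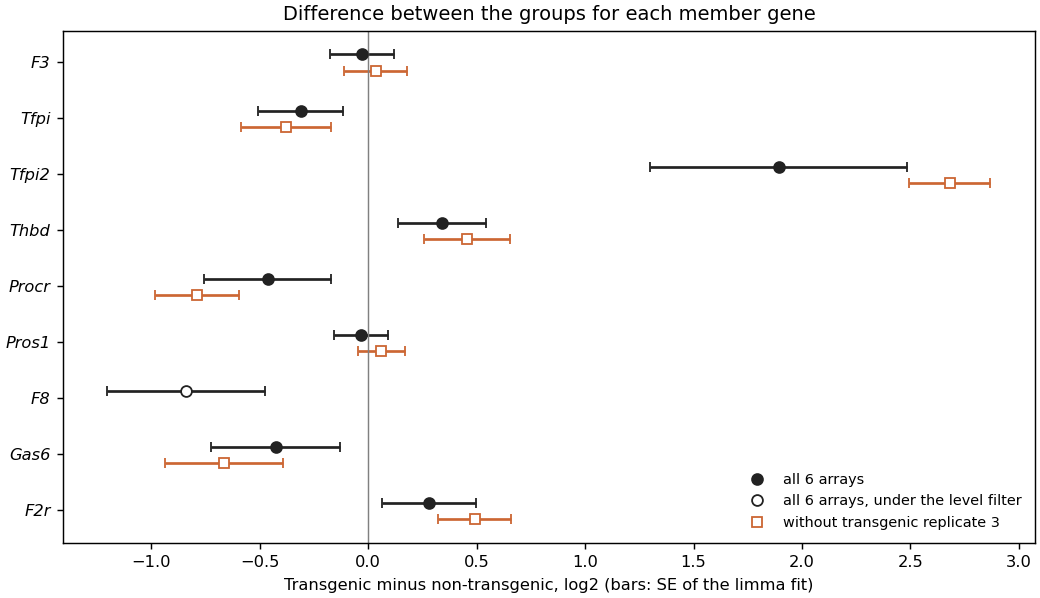
Difference between the groups on the log2 scale for each of the 9 genes (brightest probe set), with the SE of the limma fit as bars. Filled circles use all 6 arrays, the open circle is F8, which lies under the level filter, and squares leave out transgenic replicate 3. Tfpi2 lies at 1.89 and, without that culture, at 2.68, while the other tested genes lie between -0.46 and 0.34 with all arrays.

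Read together, 5 of the 8 tested members had their transgenic replicate 3 inside the range of the non-transgenic cultures. Of all 11208 genes tested, 4397 did. For F3 and Pros1 that culture lay below every non-transgenic one, and for Tfpi2 above. Transgenic replicate 2 was the highest or the lowest of the 6 cultures for 6 of the 8 on their brightest probe sets, and for 52.7% of all genes tested. It was the highest for Tfpi2, Thbd and F2r and the lowest for Procr, Gas6 and Tfpi 1438530_at, but not the lowest on Tfpi 1451790_a_at or 1451791_at. Of the 12 probe sets above the filter, 6 lay above 0 and 6 below, and 45.7% of the 19750 probe sets tested lay above 0. With each array centred on its median, which moves the median difference of all genes by 0.27 (75.3% of them above 0, against 47.5% as deposited), 5 of the 8 members lay above 0 and 3 below, against 3 and 5 as deposited, F3 and Pros1 having turned to 0.24 each. That centring also gave 0.61 for Thbd, 0.55 for F2r, -0.04 for Tfpi, -0.20 for Procr and -0.16 for Gas6. None of the 8 passed there, but 3 of them, Tfpi2, Thbd and F2r, had an unadjusted p under 0.05, as 2825 of the 11208 genes did.

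Other genes of the cascade and its control were read from a list of 38, sorted by role, of which 13 were tested. None passed the adjusted threshold, 7 lay above 0 and 6 below, and with each array centred on its median 12 lay above 0. By their mean over the 6 arrays the 12 plasma coagulation factors, most of them made by the liver, all lay under the filter, among them F7, the partner of tissue factor, at 5.97, 5.15 and 5.54 against 4.47, 5.90 and 5.07, and F10 at 7.50, 6.95 and 7.13 against 6.80, 6.86 and 6.89. F5, the cofactor of factor Xa, was at 7.60, 6.50 and 6.29 against 8.78 and 8.80 in transgenic replicates 1 and 2, which reached the filter, with replicate 3 inside the non-transgenic range. In the fit without a filter it differed by 1.39 ± 0.58 (SE, limma adjusted p = 0.505, unadjusted p = 0.0432). Entpd1, an ectoenzyme that breaks down the platelet agonist ADP, also lay under the filter by its mean. It was at 7.29, 6.86 and 6.79 against 8.17, 8.68 and 7.41, and the groups did not overlap. Without a filter the difference was 1.11 ± 0.41 (SE, limma adjusted p = 0.502, unadjusted p = 0.0256). Of the genes tested, 9.39% did not overlap with the transgenic group higher, and 6.47% were higher at an unadjusted limma p under 0.05. These shares without a filter are not given here. Among the related genes under the filter, F10 (lower) and F2rl3 (higher) did not overlap either. Proc, the protein C precursor itself, lay under the filter too, at 5.86, 4.83 and 4.40 against 4.83, 5.07 and 4.49. So did Vwf, the carrier of factor VIII and a defining endothelial product, at 7.18, 4.47 and 4.87 against 5.35, 6.01 and 5.29. Serpine2, F2rl1 and Adamts13 were not analysed here.

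Of the partners of factor VIII, Mcfd2, which with Lman1 carries factors V and VIII out of the endoplasmic reticulum, had the smallest p of the list. It was at 13.04, 13.06 and 13.08 in non-transgenic cultures against 13.89, 13.91 and 13.22 in the transgenic cultures. The groups did not overlap, and replicate 3 was again the transgenic culture nearest to the controls. The difference was 0.61 ± 0.20 (SE, limma adjusted p = 0.428), and without transgenic replicate 3 it was 0.84 and passed (limma adjusted p = 0.00582, as 6.88% of genes did in that direction). Lman1 differed by 0.0019 ± 0.16 (SE) on its brightest probe set, but its 5 probe sets ran from -1.21 to 0.68.

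The vitamin K cycle supplies the carboxylated residues by which protein S and Gas6 bind membranes. Vkorc1l1, a vitamin K epoxide reductase, was at 12.21, 11.77 and 12.03 against 12.90 and 13.21 in transgenic replicates 1 and 2, while replicate 3 lay inside the non-transgenic range (difference 0.70 ± 0.31, SE, limma adjusted p = 0.437). Without that culture it was 1.06 and passed (limma adjusted p = 0.0122). Its second probe set differed by 0.16 with all arrays and by 0.15 without that culture, and did not pass (limma adjusted p = 0.637 and 0.536 in the fits of every probe set). There the groups did not overlap, at 11.89, 11.88 and 11.90 against 12.03, 12.05 and 12.06, and replicate 3 was the highest. Among all genes tested, 9.39% did not overlap in that direction. Ggcx, the carboxylase, was at 10.93, 10.51 and 10.39 against 10.98, 11.18 and 11.01, with no overlap (difference 0.44 ± 0.22, SE, limma adjusted p = 0.453), and its second probe set differed by -0.42. Vkorc1, the main reductase, differed by -0.02 ± 0.13 (SE).

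The receptors of Gas6 and protein S went different ways. Axl was at 13.44, 13.35 and 13.43 in non-transgenic cultures against 13.57, 13.73 and 13.51 in the transgenic cultures. Mertk, a receptor used in the clearance of dying cells, was at 10.28, 10.24 and 10.29 against 9.69, 8.80 and 10.07. Neither pair of groups overlapped, Axl lying higher and Mertk lower in the transgenic cultures, as 9.39% and 6.72% of all genes did. Their differences were 0.20 ± 0.12 and -0.75 ± 0.34 (SE, limma adjusted p = 0.505 and 0.442), and Mertk, like its ligand Gas6, was lowest in transgenic replicate 2. Tyro3 overlapped, at 8.84, 8.84 and 8.61 against 8.41, 8.68 and 9.07. Among genes that govern the phospholipid on which clotting complexes assemble, Plscr1, a phospholipid-binding protein of the plasma membrane, differed by 0.37 ± 0.25 (SE, limma adjusted p = 0.557). Anxa5, which shields phosphatidylserine, and Ano6, a scramblase that exposes it, differed by 0.06 ± 0.11 and -0.02 ± 0.13 (SE, limma adjusted p = 0.831 and 0.960).

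**Figure D4:**
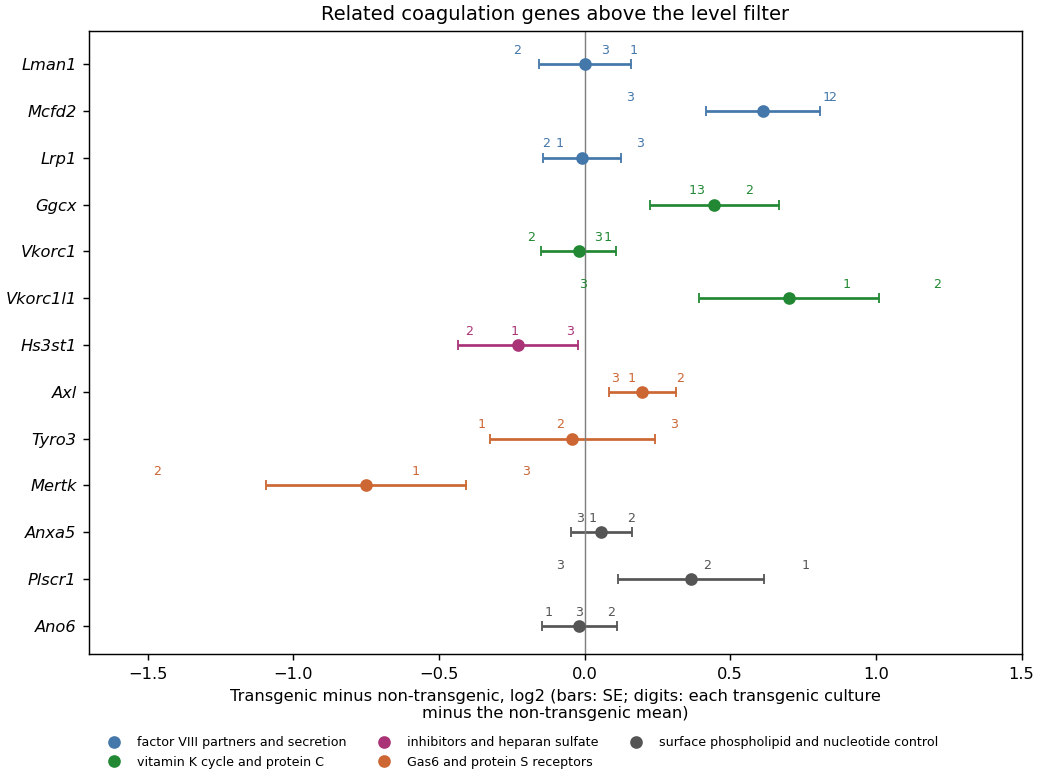
Difference between the groups on the log2 scale for the 13 related genes above the level filter, coloured by role, with the SE of the limma fit as bars. Digits mark each transgenic culture minus the non-transgenic mean. Mcfd2 lies at 0.61 and Mertk at -0.75, and no gene passed the adjusted threshold.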

How the data were processed

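RNA of 6 cultures, 3 per group, was measured, with groups and replicate numbers from the sample titles. The authors deposited linear intensity values, 1 for each probe set on each array. Per the submitters' processing notes these come from MAS5, with a version not given in the sources used here. Scaling was left as deposited, since trimmed means were near 1500 on every array. Of 45101 probe sets 64 were controls, and 34945 had 1 gene symbol, updated by gene identifier with RefSeq's mouse table (GRCm38.p6) for 34741. The number of arrays limits the precision.

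Differences of log2(intensity + 16) were tested two-sided with limma 3.58.1 in R 4.3.3 (lmFit, eBayes with trend), with Benjamini-Hochberg adjustment over all 11208 genes, each read by its brightest probe set, and again over 19750 probe sets. The fit was tested on simulated data. Ratios within arrays were compared by exact permutation. Members and lists were chosen with earlier results of these data known. The related genes named are the 6 tested with the smallest p, those of the receptors of Gas6, and F7, F10, Proc and Vwf, beside 6 regulators and the 3 genes nearest to F3 and to Thbd; Lman1, Vkorc1, F2rl2, F2rl3, Anxa5, Ano6, F5 and Entpd1 were added after their values were seen. Alternatives changed the pseudocount, the filter, the scaling, the variance prior, the weights of the arrays and the way probe sets are joined, used replicate number as a block, or left out an array.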

Additional observations from a re-analysis of the deposited data

How the results depend on the processing

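limma called 0 genes (1288 at an unadjusted p under 0.05) and 0 probe sets (2788). With estimated array weights it called 5504 genes and 9971 probe sets, and that fit rested mostly on transgenic replicate 1 (weight 5.24) and non-transgenic replicate 2 (4.65). With each array left out in turn, 0 to 1649 genes and 0 to 3196 probe sets were called, above 0 only without transgenic replicate 3. With array weights Tfpi2 (2.55), Procr (-0.78), Tfpi (-0.43), F2r (0.42) and Thbd (0.33) passed, as did Tfpi probe sets 1451790_a_at (0.58) and 1451791_at (0.48). Of 136 values of the 8 genes under the alternatives, 122 kept direction and side of the threshold. F3 and Pros1 reversed to 0.24 each with arrays centred on their median, where Tfpi 1452432_at turned to 0.13, and Pros1 reversed to 0.075 (0.070 among probe sets) with array weights. With arrays left out, F3 ran from -0.10 to 0.040, Pros1 from -0.10 to 0.061, and Tfpi 1451791_at from -0.075 to 0.25. The cause was not tested. With the replicate number as a block 0 genes and 0 probe sets were called (1117 and 2512 at an unadjusted p under 0.05). Deviations from the group mean of same-numbered cultures correlated at 0.057, -0.23 and -0.046, and those of differently numbered cultures at -0.13 to 0.26. With 3 cultures per group these values cannot decide whether same-numbered cultures shared a batch, and the labels do not say. Low signal limits F8 and Gas6 1459585_at, which were under the filter.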
